A study of Homo sapiens with 4 samples.

Results

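The actin cytoskeleton genes described here are 47 genes listed by name, from the actins themselves to the proteins that cross-link, bundle, cap, branch, decorate and pull on actin filaments. They were taken from a list of gene symbols drawn up with earlier results of these data known, by a rule with no threshold on a measured value. Of the 47 symbols, 45 were rows in all 4 libraries, among 19192 genes counted, and VCL and DIAPH1 were not analysed here. The 45 genes took 1.52% of the counts in the OE-labelled RNA library (exact 95% interval 1.51 to 1.53%) and 1.47% in the knockout-labelled RNA library (1.46 to 1.48%). They took 2.72% (2.70 to 2.74%) and 2.62% (2.60 to 2.63%) of the footprint counts.

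Both lines derive from SW480, a human cell line established from a colorectal adenocarcinoma, and both were labelled as overexpressing LIN28B, an RNA-binding protein that blocks let-7 microRNA maturation. The first carries the label LIN28B OE, and the second carries LIN28B OE together with an IMP1-/- knockout, IMP1 being the RNA-binding protein encoded by IGF2BP1. Each line gave 1 library of randomly fragmented total RNA and 1 library of ribosome footprints, the stretches of mRNA that ribosomes shield from nuclease. Cells of 3 culture plates were pooled for each library. The design asks which mRNAs differ in level and in ribosome occupancy between the lines; whether a line was 1 clone is not given in the sources used here. IGF2BP1 had 840 counts in the OE-labelled and 1974 in the knockout-labelled RNA library (log2 ratio 0.79) and 332 and 821 footprints (1.03). LIN28B, labelled as overexpressed in both lines, had 1205 and 303 RNA counts (-2.43, -2.62 to -2.25) and 190 and 46 footprints (-2.31, -2.82 to -1.85), so it was 5.41-fold lower in knockout-labelled RNA. IGF2BP1 counts were thus higher, not lower, in the libraries labelled IMP1-/-. Counts per gene show neither IMP1 protein nor whether the gene was edited, so the knockout itself could not be checked. LIN28B differs between lines that share its label, and every direction below is between libraries named by their labels.

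Actin monomers polymerise into polar filaments that give a cell its shape and its grip on neighbours and substrate. The Arp2/3 complex nucleates branches, capping protein stops growth at the fast end, cofilin severs old filaments, and profilin feeds in new monomers. Cross-linkers such as filamins and alpha-actinins hold filaments in networks or bundles, tropomyosins coat them and set which partners bind, and non-muscle myosin II pulls on them. In intestinal epithelial cells the same set supports the brush border, cell junctions and focal adhesions, the sites where integrins are tied to actin.

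Total counts ran from 2732760 to 3260262 in the footprint libraries and from 5429224 to 6813372 in the RNA libraries. A log2 ratio here divides the knockout-labelled by the OE-labelled library after scaling within the assay, so 1 is a doubling and a positive value is a higher level in the knockout-labelled library. Each line has 1 library per assay, so differences have no replicate check, no test was possible, and the 95% intervals cover counting error only. Fewer cells of a type and less RNA per cell cannot be told apart in these bulk libraries. Among 11 colorectal epithelial markers 4 (CDX1, KRT20, LGALS4 and GPA33) were at 0 counts in the 4 libraries, and the list summed to 10025.7 CPM in the OE-labelled and 5159.9 CPM in the knockout-labelled RNA library, mostly KRT18 and KRT8. CDH1, E-cadherin, of the same list went the other way, with 243 and 614 RNA counts (0.89) and 167 and 436 footprints (1.11). Of the other marker lists, 9 muscle genes summed to 35.2 and 49.0 CPM of RNA and 8 fibroblast genes to 2.95 and 9.98 CPM, with COL1A1 at 2 and 55 counts. The 6 endothelial genes summed to 293.8 and 200.5 CPM, nearly all of it KDR (1571 and 1312 RNA counts, 3 footprints in each line), and the 8 haematopoietic genes summed to 70 and 191 RNA counts, mostly CD68. MYOD1, COL1A2, DCN, LUM, CLDN5 and PTPRC were at 0 in the 4 libraries.

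Most of the measured actin cytoskeleton genes differed little between the lines, and a handful differed strongly. A gene was measured when its mean count was at least 50 in the assay, which held for 42 of the 45 genes in RNA and 43 in footprints. At the mRNA level, FLNC, LIMA1 and DYSF, 3 of the 42, were at least 1.5-fold higher in the knockout-labelled library, where 10.5% of the 9855 measured genes were. Another 4 were at least 1.5-fold lower (IQGAP2, LASP1, ACTN4 and TPM3), again beside 10.5% of measured genes. The median log2 mRNA ratio was 0.01 for the 42 genes and 0.01 for all measured genes, and the median absolute ratio was 0.258 against 0.296. Footprints of 6 of the 43 (FLNC, TAGLN, DYSF, LIMA1, MYL9 and PXN) were at least 1.5-fold higher, beside 15.0% of 7323 measured genes, and 6 were at least 1.5-fold lower (IQGAP2, ACTN4, ARPC2, PDLIM5, ARPC4 and CALD1), beside 14.1%. These shares of members lay near the background or below it.

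Past 2-fold, 3 members were higher and 3 lower in mRNA, where 2.99% and 3.49% of measured genes were. In footprints 5 were higher and 1 was lower, beside 4.66% and 4.44%. Just under the 1.5-fold limit, which is 0.58 on the log2 scale, lay MSN (-0.55), ACTG1 and CFL1 (-0.51 each) and MYL12A (-0.49) in mRNA and MYL6 (0.54) and MSN (-0.52) in footprints. Just past it in footprints lay CALD1 (-0.59), ARPC4 (-0.66) and PDLIM5 (-0.68).

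**Figure D1:**
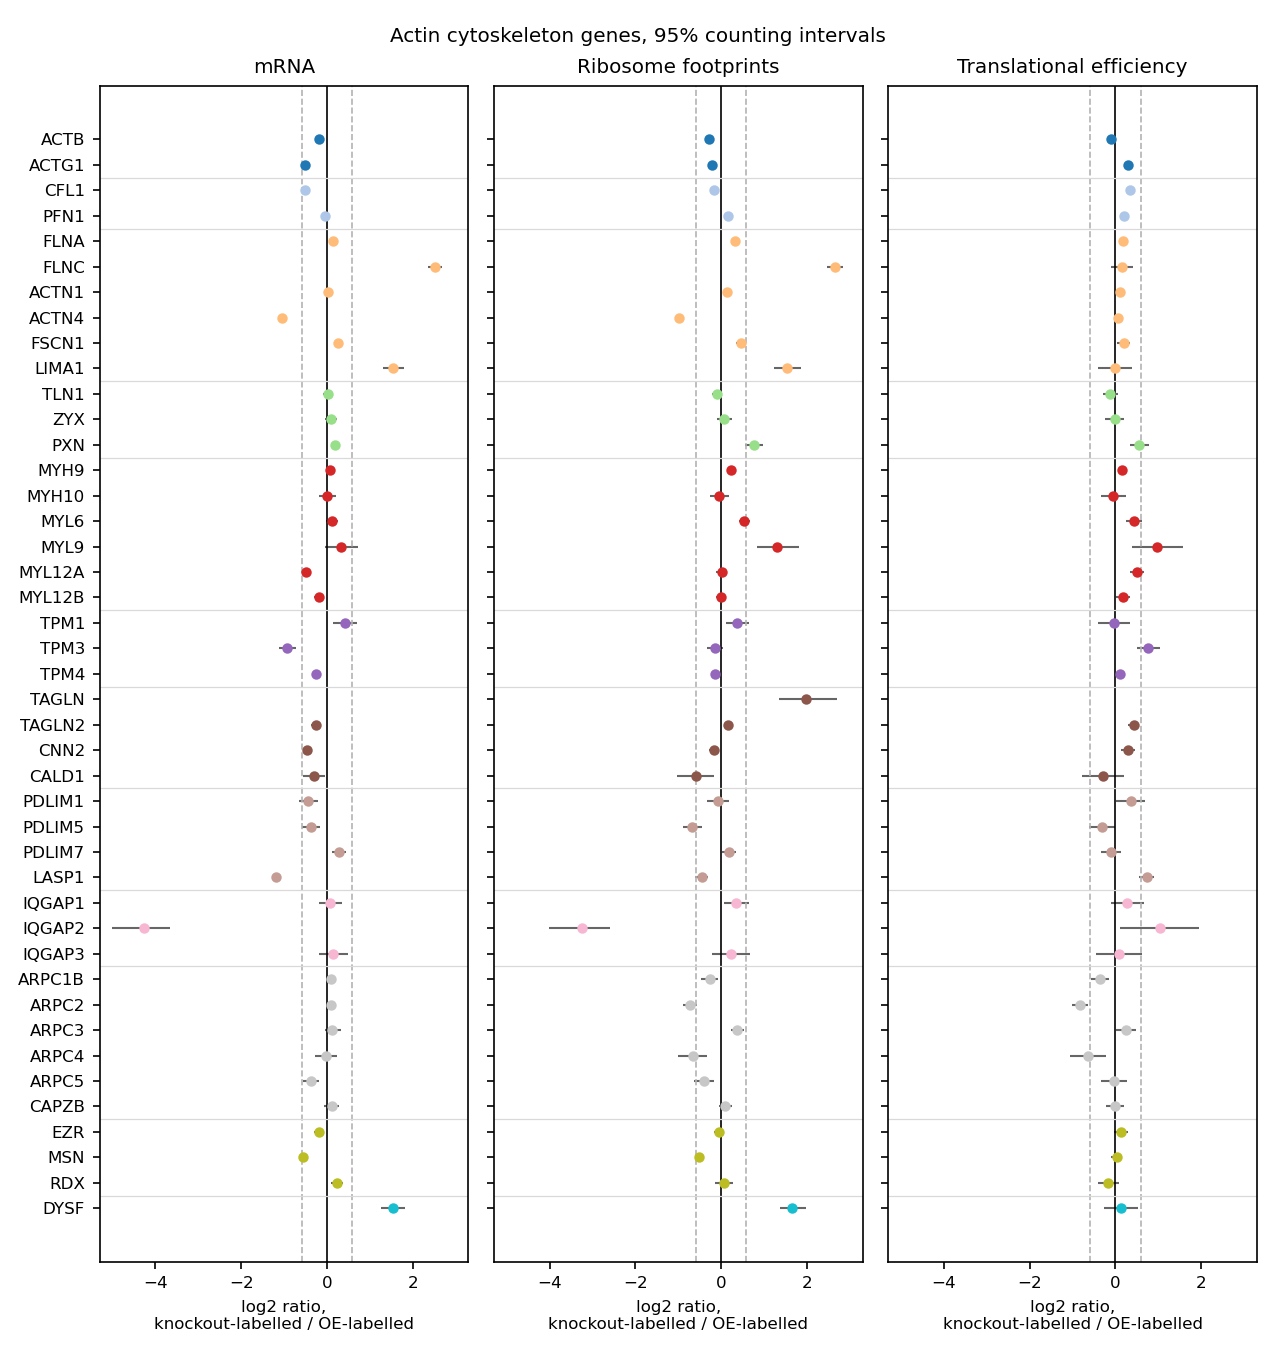
Log2 ratio of knockout-labelled over OE-labelled counts (x axis) for each measured actin cytoskeleton gene (rows, grouped and coloured by role) in mRNA, footprints and their ratio, translational efficiency; bars are 95% counting intervals and dashed lines mark 1.5-fold. FLNC, LIMA1 and DYSF stand to the right and IQGAP2 and ACTN4 to the left in both mRNA and footprints, while most others lie between the dashed lines.

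The actins were slightly lower in the knockout-labelled libraries in both assays. ACTB, cytoplasmic beta-actin (chromosome 7, 5527147 to 5530709, minus strand, GRCh38), had 18241 OE-labelled and 21967 knockout-labelled RNA counts and 16869 and 16815 footprints. After scaling these were log2 ratios of -0.18 (95% interval -0.21 to -0.15) in mRNA and -0.28 (-0.31 to -0.25) in footprints. With total-count scaling, which adds 0.12 to each log2 mRNA ratio, beta-actin mRNA stayed below 0. ACTG1, cytoplasmic gamma-actin, had 8433 and 8051 RNA counts and 5222 and 5438 footprints, ratios of -0.51 (-0.56 to -0.47) and -0.22 (-0.27 to -0.16). Per coding length, ACTB made up 68.4% of the 2 actins' RNA in the OE-labelled library and 73.2% in the knockout-labelled one, and 76.4% and 75.6% of their footprints.

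Beta-actin mRNA is the classic partner of the protein family that IMP1 belongs to, which was named for a zipcode element in the 3′ UTR of that mRNA. The human ACTB transcript counted here (ENST00000331789) holds the words CGGACT and ACACCC, 16 bases apart, at bases 2 to 29 after the stop codon (chr7:5527719-5527746, minus strand, GRCh38, GENCODE 29). It is shown because the second line is labelled as lacking IMP1, with the 2 words in capitals.
ACTB 3′ UTR site: CGGACTatgacttagttgcgttACACCC
CGGACT followed after 10 to 18 bases by ACACCC was found on the sense strand of 1 of 44 actin cytoskeleton 3′ UTRs, that of ACTB, and in 3 of 9665 3′ UTRs of genes measured in RNA (0.031%). That search was made after a shorter spacing (10 to 14 bases, then CCA or ACA followed by C or T) had found 0 of 44 members and 0.435% of the 9665. The translational efficiency of ACTB, which is the footprint ratio divided by the mRNA ratio, differed by -0.10 on the log2 scale (-0.15 to -0.06) between the lines.

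Reads of the actins could be shared. Of the 28-base stretches of the ACTB coding sequence, 24.1% also occur in another counted gene and 54.0% in any other annotated gene, many of them actin copies. For ACTG1 these shares were 16.7% and 38.6%. The coding sequences of ACTB and ACTG1 were identical in 1029 of 1128 bases (91.2%). The first 90 bases are shown with the 17 that differ in capitals, and differences are denser there than over the whole coding sequence.
ACTB coding bases 1 to 90: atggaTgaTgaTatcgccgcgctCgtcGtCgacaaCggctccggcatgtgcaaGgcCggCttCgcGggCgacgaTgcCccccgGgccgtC
ACTG1 coding bases 1 to 90: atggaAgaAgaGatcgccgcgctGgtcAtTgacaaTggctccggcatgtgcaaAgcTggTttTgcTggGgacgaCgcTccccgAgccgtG
How the authors assigned reads that fit several genes is not given in the sources used here, so the split between the actins is uncertain.

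Cofilin and profilin, which sever filaments and supply monomers, had footprint ratios near 0. CFL1 had 3712 and 3543 RNA counts and 5449 and 5895 footprints, log2 ratios of -0.51 (-0.58 to -0.45) and -0.16 (-0.22 to -0.11). PFN1 had 4521 and 5986 RNA counts and 4661 and 6254 footprints, ratios of -0.04 (-0.10 to 0.02) and 0.15 (0.09 to 0.20). The mRNA ratio of PFN1 lies on the other side of 0 with total-count scaling.

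The cross-linkers and bundlers held members far from 0 in both directions. FLNC (chromosome 7, 128830377 to 128859272, plus strand), the filamin best known from skeletal and cardiac muscle, had 329 OE-labelled and 2562 knockout-labelled RNA counts and 259 and 1986 footprints. It was 5.71-fold higher in mRNA (log2 ratio 2.51, 2.35 to 2.69) and 6.32-fold higher in footprints (2.66, 2.47 to 2.85). Both knockout-labelled libraries were therefore far above both OE-labelled ones for FLNC. FLNA, the main filamin of non-muscle cells, had 6582 and 9928 RNA counts and 3667 and 5562 footprints, ratios of only 0.15 (0.10 to 0.19) and 0.32 (0.26 to 0.39).

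Per kilobase of coding sequence, FLNC RNA stood at 7.72 CPM in the OE-labelled and 44.2 CPM in the knockout-labelled library, and its footprints at 11.7 and 74.0 CPM. FLNA stood at 159.5 and 176.7 CPM in RNA and at 170.8 and 213.9 CPM in footprints, so it remained above FLNC in each library. Of the 28-base stretches of the FLNC coding sequence, 0.847% occur in another counted gene. Its muscle company was sparse: DES had 101 and 156 RNA counts, ACTA1 51 and 85, MYH11 28 and 68, and MYOD1 none.

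LIMA1 (chromosome 12, 50175788 to 50283546, minus strand), also called EPLIN, stabilises filaments and links them to the cadherin-catenin complex. Its RNA counts were 174 and 691 and its footprints 104 and 366. That is 2.91-fold higher in mRNA (1.54, 1.30 to 1.79) and 2.90-fold higher in footprints (1.53, 1.22 to 1.87). None of its 28-base coding stretches occurs in another gene, and no exon of another gene overlaps its transcript.

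The alpha-actinins, which cross-link antiparallel filaments, went separate ways. ACTN4 (chromosome 19, 38647670 to 38731583, plus strand) had 6108 and 4040 RNA counts and 7233 and 4450 footprints, so both knockout-labelled counts were lower even though those libraries were deeper. It was 2.06-fold lower in mRNA (-1.04, -1.10 to -0.98) and 1.97-fold lower in footprints (-0.98, -1.03 to -0.92). ACTN1 had 5128 and 7130 RNA counts and 6515 and 8619 footprints, ratios of 0.03 (-0.02 to 0.08) and 0.13 (0.08 to 0.17). Per coding length, ACTN4 made up 53.8% of alpha-actinin RNA in the OE-labelled library and 35.7% in the knockout-labelled one, and 52.1% and 33.6% of the footprints. Exons of CAPN12 on the opposite strand overlap 17.5% of the ACTN4 transcript, and whether counting used strand is not given in the sources used here. FSCN1, fascin, which packs filaments into the tight bundles of filopodia, had 1245 and 2029 RNA counts and 1012 and 1681 footprints, ratios of 0.26 (0.16 to 0.36) and 0.46 (0.34 to 0.57).

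**Figure D2:**
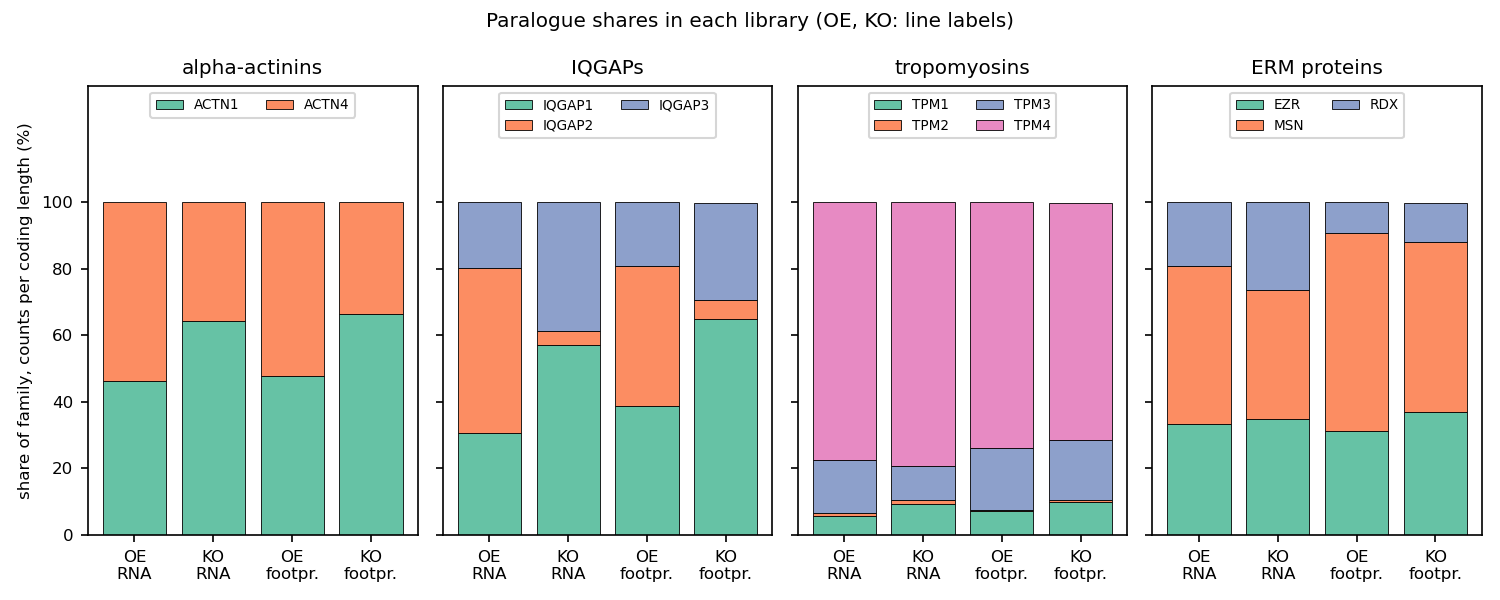
Share of each paralogue in the summed counts per coding length of its family (y axis, percent) in the 4 libraries (x axis) for alpha-actinins, IQGAPs, tropomyosins and ERM proteins. In RNA the ACTN4 block is 53.8% in the OE-labelled and 35.7% in the knockout-labelled library and the IQGAP2 block 49.8% and 4.48%, while TPM4 holds between 71.5% and 79.1% of the tropomyosins in each library.

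DYSF (chromosome 2, 71453722 to 71686768, plus strand) encodes dysferlin, a membrane protein of muscle that takes part in resealing torn plasma membrane. It had 146 and 576 RNA counts and 122 and 469 footprints. The knockout-labelled library was 2.89-fold higher in mRNA (1.53, 1.27 to 1.81) and 3.16-fold higher in footprints (1.66, 1.38 to 1.97). No 28-base stretch of its coding sequence occurs in another gene. FLNC, LIMA1 and DYSF lie on 3 chromosomes. Less the median log2 mRNA ratio of their 40 nearest measured genes they stood at 2.41, 1.42 and 1.39.

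The 250 bases before the RefSeq start of these 3 genes (GRCh38.p14) are shown because they were higher together in both assays, with matches to the 3 motifs searched in capitals.
FLNC (chr7:128830156-128830405, plus strand): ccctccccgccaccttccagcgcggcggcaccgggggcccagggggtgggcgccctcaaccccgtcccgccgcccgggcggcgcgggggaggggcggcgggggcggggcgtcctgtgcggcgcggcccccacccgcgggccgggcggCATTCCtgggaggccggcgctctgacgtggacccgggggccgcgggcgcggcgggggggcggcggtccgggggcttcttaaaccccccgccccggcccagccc
LIMA1 (chr12:50283521-50283770, minus strand): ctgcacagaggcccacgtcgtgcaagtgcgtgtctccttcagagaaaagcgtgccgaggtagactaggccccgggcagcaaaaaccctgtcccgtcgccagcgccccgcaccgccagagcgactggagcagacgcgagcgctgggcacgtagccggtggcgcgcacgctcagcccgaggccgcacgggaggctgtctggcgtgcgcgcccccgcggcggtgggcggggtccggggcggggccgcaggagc
DYSF (chr2:71453311-71453560, plus strand): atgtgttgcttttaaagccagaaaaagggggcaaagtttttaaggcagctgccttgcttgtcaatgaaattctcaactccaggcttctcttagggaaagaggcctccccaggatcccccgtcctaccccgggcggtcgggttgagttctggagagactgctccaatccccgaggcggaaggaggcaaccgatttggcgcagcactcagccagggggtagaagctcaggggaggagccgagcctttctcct
CATTCC, the core recognised by TEAD factors, was found at -103 to -98 of FLNC. It was in 7 of 40 member windows (17.5%) and 14% of 35116 RefSeq windows of 250 bases before to 50 after a start, searched on both strands. TGANTCA, the AP-1 core, was in 4 of 40 and in 7.71% of windows. Neither LIMA1 nor DYSF held one of the motifs in the bases shown.

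The CArG box, the motif bound by serum response factor (SRF), a regulator of many actin genes, was in 4 of 40 member windows and in 1.29% of all windows. None of the 4 genes was at least 1.5-fold different in either assay, and 60 bases around each box, in capitals, are shown because actin genes are the textbook targets of this factor.
ACTG1 (chr17:81512859-81512918, minus strand): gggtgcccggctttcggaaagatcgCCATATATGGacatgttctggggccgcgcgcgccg
CNN2 (chr19:1026494-1026553, plus strand): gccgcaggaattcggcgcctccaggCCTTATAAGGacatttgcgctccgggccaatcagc
FLNA (chrX:154374694-154374753, minus strand): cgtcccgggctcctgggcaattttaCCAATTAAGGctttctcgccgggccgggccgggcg
TPM4 (chr19:16067340-16067399, plus strand): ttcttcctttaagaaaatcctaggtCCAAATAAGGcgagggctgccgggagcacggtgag
Their log2 mRNA ratios were -0.51 (ACTG1), -0.46 (CNN2), 0.15 (FLNA) and -0.26 (TPM4), so 3 lay below 0 and 1 above. A match is a description of the letters and no evidence of binding.

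Focal adhesion proteins were close to level in mRNA. TLN1, talin, which ties integrins to actin, had 1069 and 1472 RNA counts and 968 and 1095 footprints, ratios of 0.02 (-0.10 to 0.13) and -0.10 (-0.22 to 0.03). ZYX, zyxin, which gathers at strained filaments, had ratios of 0.09 (-0.05 to 0.23) and 0.07 (-0.10 to 0.25). PXN (chromosome 12, 120210447 to 120265771, minus strand), the adaptor paxillin, had 1231 and 1930 RNA counts but only 294 and 603 footprints. Its mRNA ratio was 0.20 (0.10 to 0.31) and its footprints were 1.69-fold higher in the knockout-labelled library (0.76, 0.56 to 0.97). The antisense gene PXN-AS1 overlaps 24.04% of the PXN transcript by exons, so RNA reads of the pair cannot be told apart if counting ignored strand.

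The myosin II motor was dominated by MYH9, the heavy chain of non-muscle myosin IIA, at 83.0% and 82.3% of heavy-chain RNA and 87.8% and 87.9% of heavy-chain footprints per coding length. MYH9 had 3347 and 4819 RNA counts and 3532 and 5030 footprints, ratios of 0.08 (0.02 to 0.15) and 0.23 (0.17 to 0.30). MYH10, the heavy chain of myosin IIB, had intervals that held 0 in both assays. MYL6, the essential light chain, had 655 and 966 RNA counts and 834 and 1472 footprints, ratios of 0.12 (-0.03 to 0.26) and 0.54 (0.42 to 0.67). Its neighbour MYL6B shares 20.7% of its 28-base coding stretches.

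MYL9 (chromosome 20, 36541484 to 36551447, plus strand), the regulatory light chain of smooth muscle and non-muscle cells, had few counts, 91 and 156 in RNA and 48 and 145 in footprints. Its footprints were 2.48-fold higher in the knockout-labelled library (1.31, 0.84 to 1.82), while its mRNA ratio of 0.33 had an interval that held 0 (-0.05 to 0.72). MYL9 was a small part of regulatory light chain footprints, 2.21% (1.63 to 2.92%) in the OE-labelled and 5.35% (4.53 to 6.26%) in the knockout-labelled library. The rest was MYL12A and MYL12B, whose footprint ratios were 0.01 (-0.11 to 0.13) and -0.01 (-0.13 to 0.10). Their coding sequences are 95.2% identical and share 38.65% of the 28-base stretches of MYL12A. In these 90 bases, where differences are sparser than over the whole coding sequence, the 1 difference is in capitals.
MYL12A coding bases 28 to 117: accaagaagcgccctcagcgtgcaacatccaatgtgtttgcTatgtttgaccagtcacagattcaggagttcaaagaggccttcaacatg
MYL12B coding bases 31 to 120: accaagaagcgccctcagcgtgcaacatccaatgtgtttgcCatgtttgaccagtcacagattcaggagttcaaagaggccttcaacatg
The split between this pair is therefore uncertain, and their mRNA ratios of -0.49 (MYL12A) and -0.19 (MYL12B) are read as a pair.

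Tropomyosins differed among themselves. TPM4 led the family with 77.4% and 79.1% of RNA and 73.9% and 71.5% of footprints per coding length, and its ratios were -0.26 (-0.34 to -0.18) and -0.15 (-0.24 to -0.05). TPM3 (chromosome 1, 154167465 to 154192211, minus strand) had 492 and 355 RNA counts and 454 and 496 footprints. Its mRNA was 1.89-fold lower in the knockout-labelled library (-0.92, -1.12 to -0.72), while its footprint ratio was -0.15 (-0.34 to 0.04). TPM1 leaned the other way, at 0.42 (0.15 to 0.69) in mRNA and 0.38 (0.11 to 0.66) in footprints. TPM2 had 22 and 33 RNA counts and 11 and 18 footprints, under the count minimum. Only 0.722% of the 28-base stretches of TPM3 occur in another counted gene, but 34.3% occur in some other annotated gene, and each gene was counted through 1 listed transcript, so switches among the many tropomyosin isoforms could not be seen.

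Among the calponin family and caldesmon, which bind filaments and damp myosin, the strongest difference was in TAGLN. TAGLN (chromosome 11, 117201873 to 117204778, plus strand), transgelin or SM22, is a marker of smooth muscle and of contractile fibroblasts. It had 37 and 40 RNA counts, under the minimum, and 24 and 116 footprints. The footprints were 3.93-fold higher in the knockout-labelled library (1.97, 1.35 to 2.70), while the few RNA counts were nearly equal before scaling. It reached the footprint minimum through the library in which it was high. PCSK7 exons on the opposite strand overlap 20.4% of its transcript. TAGLN2, the more widely expressed paralogue, made up 98.6% and 95.2% of transgelin footprints per coding length, with ratios of -0.26 (-0.36 to -0.15) in mRNA and 0.17 (0.08 to 0.26) in footprints.

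CALD1, caldesmon, had 247 and 272 RNA counts and 106 and 85 footprints, ratios of -0.31 (-0.56 to -0.05) and -0.59 (-1.02 to -0.17), the latter 1.51-fold lower and inside 1.5-fold with total counts (-0.57). CNN2 was nearly the whole calponin family, with 1673 and 1650 RNA counts, and its ratios were -0.46 (-0.56 to -0.37) and -0.17 (-0.29 to -0.05). CNN3 had 1 RNA count in each line and no footprint, which allows up to 1.11 CPM in the OE-labelled and 0.913 CPM in the knockout-labelled footprint library at 3 counts.

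The footprints of the smooth-muscle genes TAGLN and MYL9 stand beside the muscle and fibroblast marker sums given above for RNA. In footprints the muscle list summed to 72.1 CPM in the OE-labelled and 107.0 CPM in the knockout-labelled library, with CNN1 at 0 in both, and the fibroblast list to 0 and 18.7 CPM, nearly all of it COL1A1 (0 and 57 footprints). The part of other cell types in these ratios was not tested.

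Of the 4 genes listed as LIM-domain scaffolds 3 lay below 0 in each assay, beside 4816 of 9855 measured genes in mRNA and 3548 of 7323 in footprints. LASP1 (chromosome 17, 38869859 to 38921770, plus strand), which carries a LIM and an SH3 domain and sits at the leading edge and at focal adhesions, had 1863 and 1117 RNA counts and 867 and 767 footprints. It was 2.27-fold lower in mRNA (-1.18, -1.29 to -1.07) but only 1.37-fold lower in footprints (-0.45, -0.60 to -0.31). The 40 nearest measured genes had a median log2 mRNA ratio of -0.21, which left -0.97 for LASP1. PDLIM5 (chromosome 4, 94451902 to 94668223, plus strand), a PDZ and LIM protein that binds alpha-actinin, had 382 and 404 RNA counts and 384 and 291 footprints. Its mRNA ratio was -0.36 (-0.57 to -0.16) and its footprints were 1.60-fold lower (-0.68, -0.90 to -0.45), or -0.50 less the median of the 40 nearest genes. PDLIM1 had ratios of -0.43 (-0.66 to -0.20) and -0.07 (-0.33 to 0.19), and PDLIM7 of 0.28 (0.11 to 0.45) and 0.18 (0.02 to 0.35).

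IQGAP2 showed the largest ratio among the members in both assays. IQGAPs are large scaffolds that bind filaments, calmodulin and the GTPases RAC1 and CDC42, and IQGAP2 is best known from liver. IQGAP2 (chromosome 5, 76403249 to 76708132, plus strand) had 303 OE-labelled and 21 knockout-labelled RNA counts and 159 and 20 footprints. It was 19.2-fold lower in mRNA (-4.26, -5.01 to -3.66) and 9.42-fold lower in footprints (-3.24, -4.02 to -2.59). Its 40 nearest measured genes had a median of 0.03, and none of its 28-base coding stretches occurs in another gene.

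IQGAP2 made up 49.8% (45.7 to 53.7%) of IQGAP RNA per coding length in the OE-labelled and 4.48% (2.80 to 6.76%) in the knockout-labelled library, and 42.3% (37.3 to 47.4%) and 5.77% (3.56 to 8.76%) of IQGAP footprints. IQGAP1, the ubiquitous form, had 196 and 281 RNA counts and 153 and 237 footprints, ratios of 0.07 (-0.19 to 0.35) and 0.35 (0.06 to 0.66). IQGAP3, linked to proliferating cells, had 124 and 187 RNA counts, and its interval held 0 in both assays. The summed IQGAP level was 24.7 CPM per kilobase in OE-labelled and 14 in knockout-labelled RNA, and 29.3 and 22.3 in footprints, so the family total was lower too.

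The Arp2/3 complex and capping protein were nearly level in mRNA, and the Arp2/3 subunits were uneven in footprints. Of the 6 measured members in this group 0 were at least 1.5-fold different in mRNA, with a range of -0.36 to 0.13. In footprints ARPC2 and ARPC4 were at least 1.5-fold lower. ARPC2 (chromosome 2, 218217210 to 218254356, plus strand), one of the subunits that grip the mother filament, had 1271 and 1851 RNA counts but 757 and 551 footprints. Its mRNA ratio was 0.10 (-0.01 to 0.20) and its footprints were 1.66-fold lower in the knockout-labelled library (-0.73, -0.90 to -0.57), or -0.58 less the median of the 40 nearest genes, just inside 1.5-fold. ARPC4 (chromosome 3, 9792558 to 9807726, plus strand), the partner of ARPC2 in the core, had 221 and 296 RNA counts and 175 and 134 footprints, ratios of -0.02 (-0.28 to 0.23) and -0.66 (-1.0 to -0.33). Nearly all of its 28-base stretches (98.8%) also lie in the read-through gene ARPC4-TTLL3, so its counts are uncertain, while ARPC2 shares none.

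The other subunits were set beside them after the values of ARPC2 and ARPC4 had been seen. ACTR3, the actin-related protein Arp3, had 1557 and 1781 RNA counts and 1359 and 965 footprints, ratios of -0.25 and -0.77. ACTR2, which encodes Arp2, had 2508 and 3088 RNA counts and 2636 and 2188 footprints, ratios of -0.14 and -0.55. ARPC5 had ratios of -0.36 (-0.55 to -0.18) and -0.39 (-0.63 to -0.16). ARPC3 went the other way in footprints, with 396 and 592 RNA counts and 654 and 1032 footprints (0.13 and 0.38).

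ARPC5L, the paralogue of ARPC5, also stood higher in footprints, with 377 and 434 RNA counts and 137 and 212 footprints (-0.24 and 0.35), and ARPC1A was near 0 in both (-0.04 and -0.02).

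Over the 9 genes of the complex, a set put together after values were seen, the median log2 ratio was -0.04 in mRNA and -0.39 in footprints, beside medians of 0.01 and 0.02 over all measured genes. In footprints 3 of the 9 were at least 1.5-fold lower (ACTR3, ARPC2 and ARPC4), beside 14.1% of measured genes, and 7 lay below 0, beside 3548 of 7323. Both counts and the median include ARPC2 and ARPC4, whose low values prompted the set, so no excess over all measured genes can be read from them. Of the 9 footprint intervals 6 lay wholly below 0 and 2 wholly above, beside 15 and 17 of the 43 measured members. The share over all measured genes is not reported here. Per coding length the footprints of the complex differed between subunits within a line as well, from 80.9 to 588.3 CPM per kilobase in the knockout-labelled library, where ARPC4 was lowest and ARPC3 highest among subunits without a paralogue. Capping protein, the heterodimer of an alpha and a beta subunit, was steady: CAPZB had 500 and 734 RNA counts and 599 and 777 footprints, ratios of 0.11 (-0.06 to 0.28) and 0.10 (-0.06 to 0.26). CAPZA1 and CAPZA2 summed to 330.9 and 349.1 CPM per kilobase of footprints, beside 270.6 and 289.9 for CAPZB.

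**Figure D3:**
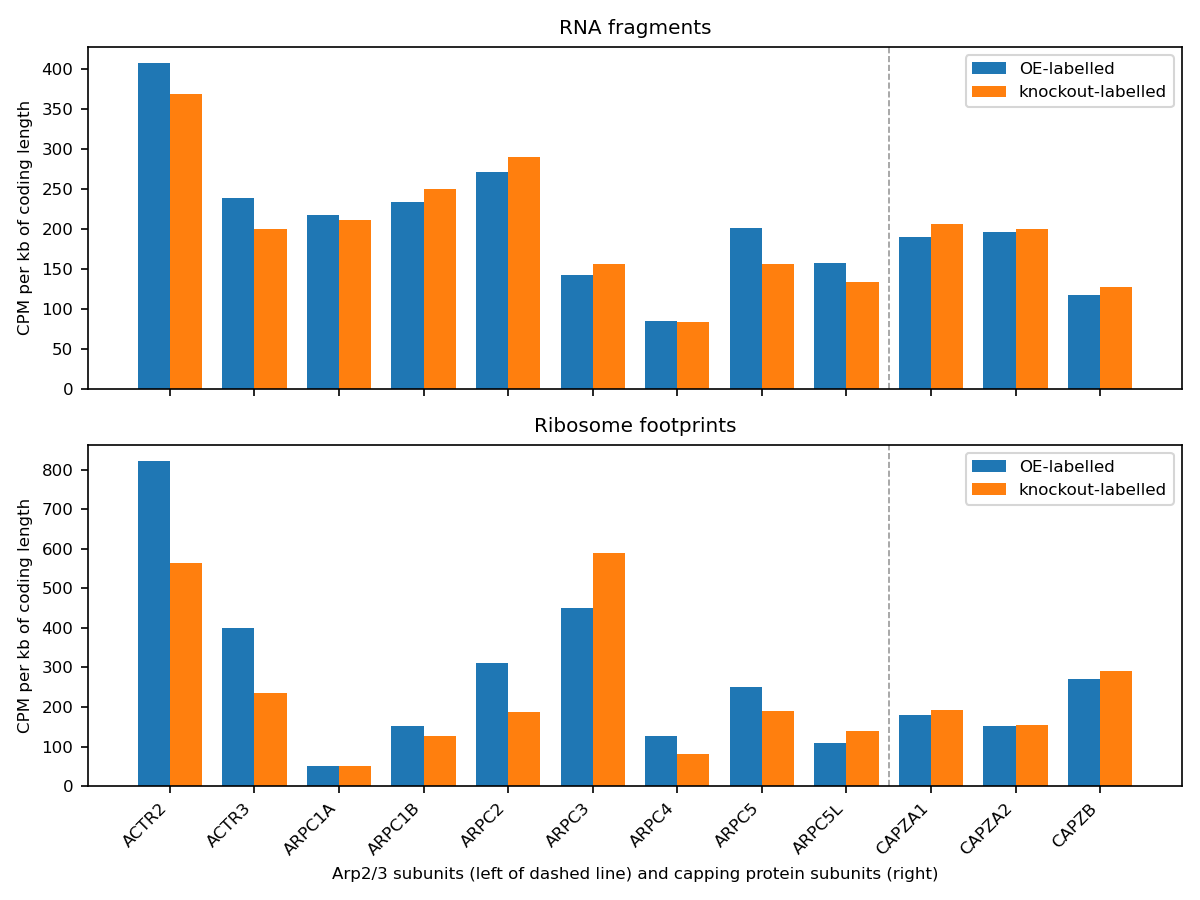
Scaled counts in CPM per kilobase of coding sequence (y axis) for each Arp2/3 subunit gene and capping protein gene (x axis) in RNA fragments (top) and footprints (bottom), with OE-labelled bars in blue and knockout-labelled bars in orange. Footprints of ACTR2, ACTR3, ARPC2 and ARPC4 are lower in the knockout-labelled line (ARPC2 from 310.1 to 186.4) and those of ARPC3 higher (451.5 to 588.3), while the 3 capping protein genes differ little in either panel.

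Ezrin, radixin and moesin tie filaments to the plasma membrane. MSN had 1601 and 1491 RNA counts and 2307 and 1950 footprints, ratios of -0.55 (-0.65 to -0.44) and -0.52 (-0.61 to -0.43), just short of 1.5-fold in both assays. EZR, the form of the brush border, had ratios of -0.18 (-0.30 to -0.07) and -0.05 (-0.17 to 0.06), and RDX of 0.23 (0.09 to 0.37) and 0.06 (-0.14 to 0.27). Moesin remained the leading member per coding length, at 59.7% and 51.3% of footprints.

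Across the 42 genes measured in both assays the ratios ran close to each other. Pearson's r was 0.92 and Spearman's correlation 0.79 (n = 42 genes), and without FLNC and IQGAP2 they were 0.80 and 0.76 (n = 40); over all 7260 genes measured in both they were 0.51 and 0.41. The genes share their libraries and are not independent, so these are descriptions. The members were also counted more deeply. In footprints 36 of 43 had a mean count of at least 200, beside 2977 of 7323 measured genes. The part of depth in the higher correlations was not tested. Of the 42 genes, 3 were at least 1.5-fold higher in both assays (FLNC, LIMA1 and DYSF) and 2 lower in both (ACTN4 and IQGAP2). Another 2 were lower in mRNA alone (LASP1 and TPM3), 2 higher in footprints alone (PXN and MYL9), 4 lower in footprints alone (ARPC2, ARPC4, PDLIM5 and CALD1), and 29 within 1.5-fold in both. Over all 7260 genes these groups held 274, 297, 295, 774, 695 and 4536 genes in the same order, so the 4 of 42 lower in footprints alone are near the background share.

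**Figure D4:**
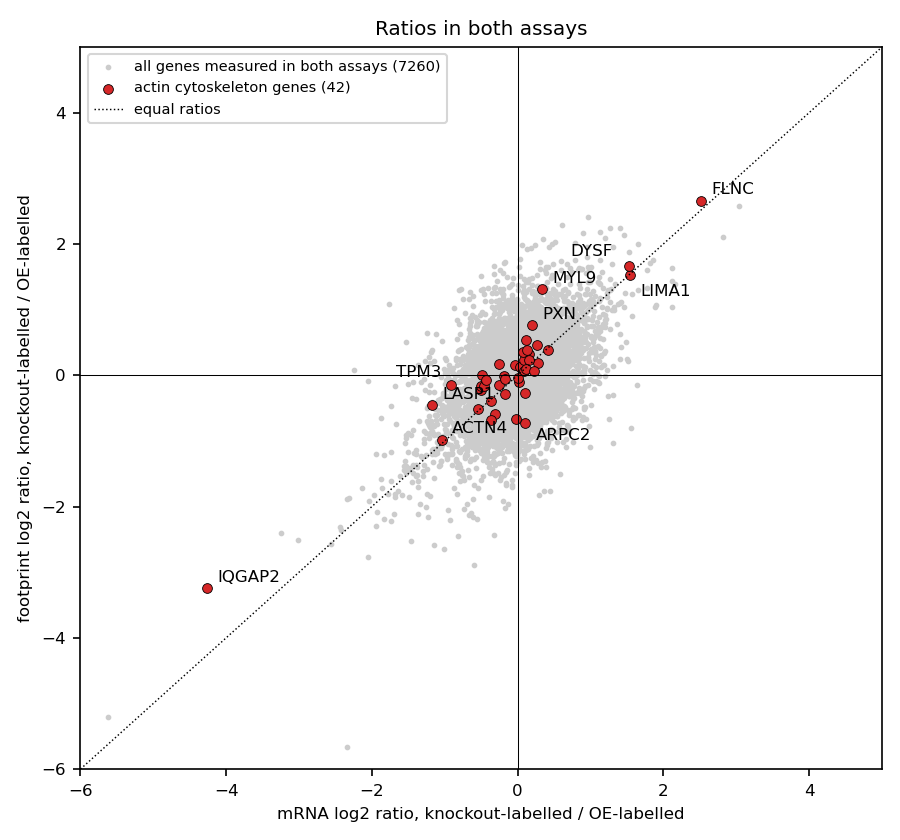
Footprint log2 ratio (y axis) against mRNA log2 ratio (x axis), knockout-labelled over OE-labelled, for the 42 actin cytoskeleton genes (red) and all 7260 genes measured in both assays (grey, 2 of which lie outside the axes); the dotted line marks equal ratios. FLNC, DYSF, LIMA1 and ACTN4 lie near the dotted line, TPM3, LASP1 and IQGAP2 lie above it, and ARPC2 lies below it.

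Translational efficiency differed by at least 1.5-fold in 6 of the 42 genes. IQGAP2, MYL9, TPM3 and LASP1 were higher in the knockout-labelled line, beside 13.4% of 7260 measured genes, and ARPC2 and ARPC4 were lower, beside 12.9%. At 2-fold, 1 member was higher (IQGAP2, beside 3.65% of measured genes) and 0 were lower (beside 3.6%). The values were 1.03 (0.11 to 1.94) for IQGAP2, 0.98 (0.38 to 1.58) for MYL9, 0.77 (0.50 to 1.04) for TPM3 and 0.73 (0.55 to 0.91) for LASP1. Those of the lower pair were -0.83 (-1.02 to -0.64) for ARPC2 and -0.64 (-1.05 to -0.23) for ARPC4. The IQGAP2 and MYL9 intervals are wide because 20 and 48 footprints lie behind their smaller counts. IQGAP2 reached the count minimum in both assays, and MYL9 in footprints, through the library in which each was higher. With the median of the 40 nearest genes subtracted, TPM3 stood at 0.58, just inside 1.5-fold.

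For IQGAP2, TPM3 and LASP1 the higher efficiency goes with a lower mRNA level, so footprints were nearer to level than mRNA or, for IQGAP2, less far from it. For MYL9 it goes with higher footprints over a nearly level mRNA. PXN fell just short of the limit at 0.55 (0.33 to 0.78), and FLNC, LIMA1, DYSF and ACTN4 had intervals that held 0. The median over the 42 genes was 0.13 against 0.00 over all measured genes, and with total-count scaling 0.03 against -0.1. The median absolute value was 0.182 against 0.341, and the part of counting depth in that contrast was not tested.

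Within each line, actin cytoskeleton mRNAs carried more footprints per RNA fragment than the median gene. This ratio was set to 0 at the median of the 7260 genes measured in both assays. The 42 genes had a median log2 value of 0.41 in the OE-labelled line, where 16 were at least 1.5-fold above the median gene (24.1% of all measured genes were) and 2 at least 1.5-fold below (28.7%). In the knockout-labelled line the median was 0.59, with 21 at least 1.5-fold above (24.9%) and 4 below (29.7%). Among genes with a mean count of at least 200 in each assay these medians were 0.19 and 0.25, so over this limit the members stood less far above the rest.

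The highest value in each line belonged to ARPC3, at 1.45 in the OE-labelled line (percentile 97.4 of all measured genes) and 1.68 in the knockout-labelled line (98.8). In the OE-labelled line CFL1 (1.28), MSN (1.25), MYL6 (1.08) and ACTN1 (1.07) came next, and in the knockout-labelled line CFL1 (1.61), MYL6 (1.48), TPM3 (1.36) and TAGLN2 (1.32). The lowest in the OE-labelled line were PXN (-1.34, percentile 11.4), ARPC1B (-0.84), CALD1 (-0.49) and LASP1 (-0.38). In the knockout-labelled line they were ARPC1B (-1.22, percentile 14.1), ARPC2 (-0.87), PXN and CALD1 (-0.80 each). ARPC2 was at the median gene in the OE-labelled line (-0.02, percentile 49.1). Among the listed members, ARPC2 was thus among the lowest in the knockout-labelled line alone and ARPC1B in both lines, while ARPC3 was highest in each line. ARPC1A, an Arp2/3 subunit outside the member list, was lower than any member in both lines (-2.28 in each, percentiles 2.26 and 3.09). ARPC1A shares 98.4% of its 28-base stretches, ARPC1B 97.4% and ARPC3 77.3%, with other annotated genes that have no row here.

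The order was much the same in the lines: Pearson's r between them was 0.83 over the 42 genes and 0.84 over all 7260, values that share no library but share each gene's sequence and length. Whether RNA fragments and footprints were counted over the same part of each transcript is not given in the sources used here. The share of the transcript that is coding had a Spearman correlation with this value of 0.30 and 0.27 over 7252 genes in the OE-labelled and knockout-labelled lines, and of -0.04 and -0.07 over the 42.

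**Figure D5:**
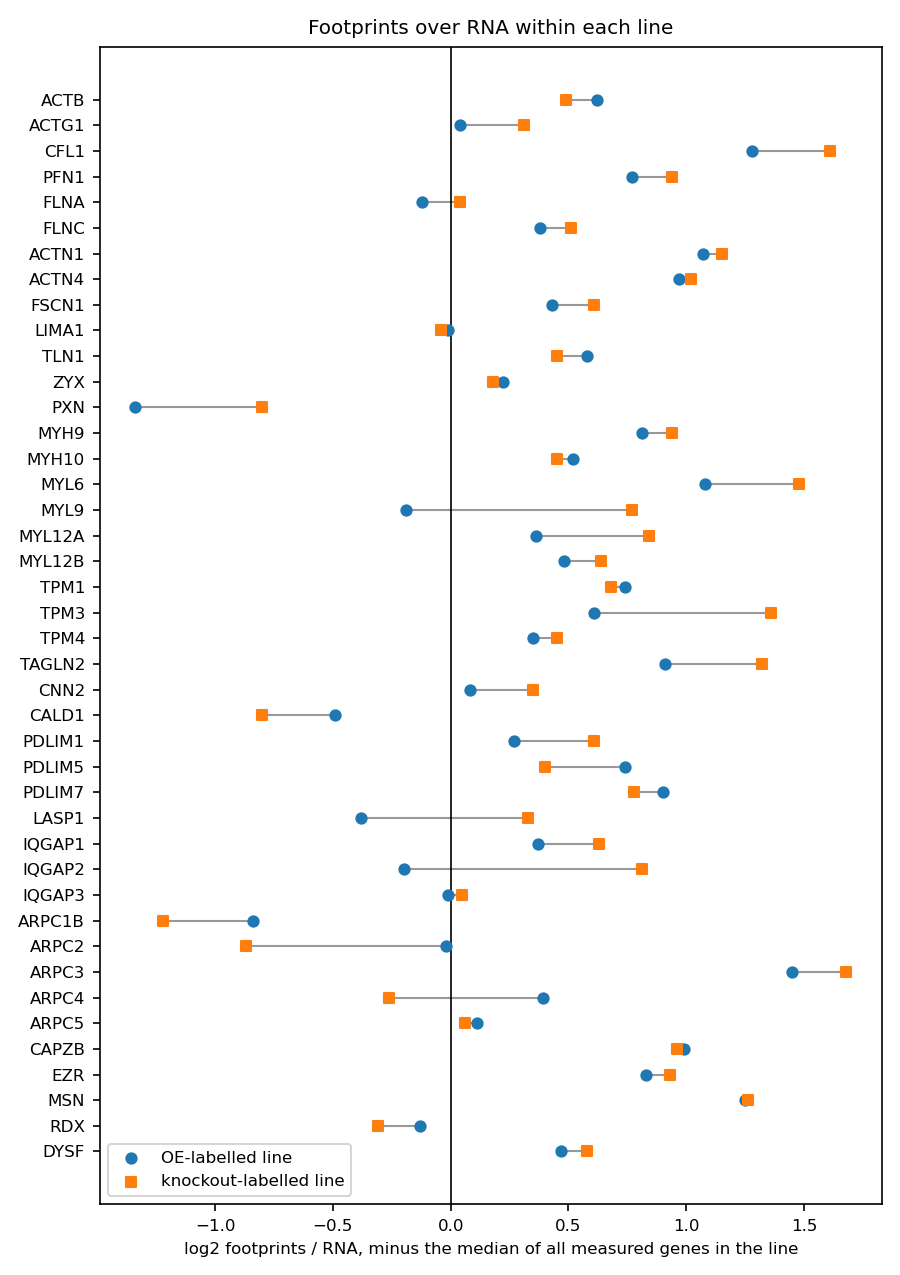
Log2 footprints over RNA of each actin cytoskeleton gene (rows), less the median of all measured genes of the same line (x axis), in the OE-labelled (circles) and knockout-labelled (squares) lines. Of the 42 genes 31 circles and 35 squares lie right of 0, and the longest lines, those of IQGAP2, MYL9, ARPC2, TPM3 and LASP1, mark the genes whose value differed most between the lines.

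Other genes of actin regulation, 151 in 6 lists, were counted the same way. In mRNA 13 of 134 measured genes were at least 1.5-fold higher and 14 lower, a median of -0.04. In footprints 12 of 120 were higher and 21 lower, a median of -0.05, and in translational efficiency 6 of 119 were higher and 10 lower, again -0.05. These shares are near or under the backgrounds given above, except that 21 of 120 lower footprints stands somewhat over 14.1%.

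By list, to be read beside the 10.5% of all measured genes in each direction and their median of 0.01, 19 other cross-linkers and spectrins had 2 higher and 2 lower in mRNA, the lower being MACF1, which links microtubules to actin (1623 and 906 RNA counts, -1.29, -1.40 to -1.17), and VIL1, villin of the brush border (194 and 147, -0.84). Of 28 other nucleators and Arp2/3 genes 1 was higher, the formin DAAM1 (127 and 390 RNA counts, 1.17; footprints 0.93), and 3 were lower, WASF3, CYFIP2 and FHOD3. Among 24 monomer-binding, severing and capping genes 1 was higher and 4 lower. Of the thymosins, small peptides that hold actin monomers, TMSB4X had 1898 and 959 RNA counts (-1.43, -1.54 to -1.32) and 1129 and 604 footprints (-1.18, -1.32 to -1.03), and TMSB10 had 7053 and 6238 RNA counts (-0.62, -0.67 to -0.57) with a footprint ratio of -0.14. SSH3, a phosphatase that activates cofilin, had few counts (166 and 101 in RNA) and ratios of -1.16 and -1.13, and ADD1, an adducin, had -0.61 and -0.63. SSH3 was named after its values were seen.

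Other focal adhesion genes had 2 higher and 3 lower of 19, among them the kindlins in opposite directions, with FERMT1 at -0.78 (1468 and 1167 RNA counts) and FERMT2 at 1.14 (158 and 476). Their footprint ratios were -0.60 and 0.29 (0.01 to 0.58), so FERMT2 was nearer to level in footprints. TNS4, a tensin that lacks the actin-binding part, was lower in mRNA (-1.04) and footprints (-1.07). The list of SRF, its MRTF cofactors, and targets of these and related factors had 17 genes measured in mRNA. Of these, 5 were higher and 2 lower with a median of 0.36, beside 10.5% each way and 0.01 over all measured genes. In footprints 4 of 15 were higher and 1 lower with a median of 0.13, beside 15.0%, 14.1% and 0.02 over all measured genes. CYR61 was highest (189 and 938 RNA counts, 1.86, 1.64 to 2.1; footprints 1.75), EGR1 stood at 0.97 (footprints 1.00) and ANKRD1 was lowest (1021 and 431 RNA counts, -1.69, -1.85 to -1.53; footprints -1.81). The list thus held large ratios of both signs.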

How the data were processed

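Libraries held footprints sized 18 to 34 nt or RNA fragments sized 18 to 50 nt, per the labels' protocols, with 4 nt and 5 nt random identifiers in the linkers, rRNA depletion and 15 cycles of PCR. The authors deposited 1 whole-number count per gene and library for 19192 genes, each with 1 named transcript. The submitters' processing notes name HISAT2 2.1.0, Bowtie 1.1.2, cutadapt 1.10 and the build GRCh38. The counter, the part of the transcript it covered, strand use and any collapsing of PCR copies were not given in the sources used here. All intervals cover counting error only and would be wider were PCR copies removed. One RNA library's cell line field reads SW840 and its source field SW480.

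Libraries were grouped by genotype label and assay. Counts were scaled with TMM (edgeR 4.0.16, R 4.3.3) within each assay, 0.5 was added, and genes with a mean count of at least 50 were kept. Intervals of ratios are exact conditional binomial 95% intervals, those of translational efficiency are Wald intervals from 4 counts, and those of shares are Clopper-Pearson intervals. No p-value was computed. As alternatives, scaling used size factors of DESeq2 1.42.0, the upper quartile, or total counts with or without mitochondrially encoded genes, beside count minimums of 10, 200 or none, 5 added, a fold of 2 and subtraction of the 40 nearest genes' median. The ratio step was tested on simulated counts.

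Members and lists were chosen with earlier results of these data known, and the promoter motifs likewise. Named genes are members past 1.5-fold, the member with most RNA counts of each role, their paralogues, and in the other lists up to 4 genes with most counts among those past 1.5-fold. Further members and subunits given with values were added after these were seen. Positions come from GENCODE 29, which held 19176 of the 19192 transcripts. A few genes and 1 list are left unreported. RefSeq (GRCh38.p14) windows were found for 40 members.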

Additional observations from a re-analysis of the deposited data

How the results depend on the processing

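The counts of members past 1.5-fold in mRNA stayed within 1.5 times, and their median within the width of the intervals, under the alternatives run. With a count minimum of 200 (36 members), footprints had 3 lower, beside 273 of 2977 measured genes. Translational efficiency had 2 higher and 1 lower, beside 224 and 166 of 2906 measured genes. Footprints over RNA then had 9 above and a median of 0.19 in the OE-labelled line and 12 above and 0.25 in the knockout-labelled line. With a count minimum of 10 (44 members), footprints over RNA in the knockout-labelled line had 2 below and a median of 0.82. Shares of all genes in footprints over RNA at these minimums are not reported here. At a fold of 2, footprints had 1 member lower, and translational efficiency 1 higher and 0 lower. The other lists then had 3 higher and 7 lower in mRNA, 3 and 8 in footprints, and 2 and 1 in translational efficiency. A higher fold passes fewer genes by construction; the cause of the shifts at other count minimums was not tested. Total-count scaling moved the median of all genes by 0.12 in mRNA, from 1036 higher and 1038 lower to 1493 and 746, and left 3 members higher and 4 lower. In translational efficiency it gave 760 higher and 1200 lower of all genes in place of 972 and 939, with 4 members higher and 2 lower as before. No result changed sign among those past 1.5-fold, but some came inside it. With the nearest genes' median subtracted these were the footprint ratios of ARPC2 (-0.58), PDLIM5 (-0.50) and CALD1 (-0.37) and the efficiency of TPM3 (0.58). CALD1 footprints also did with total counts, with or without mitochondrial genes, and the upper quartile (-0.57 each) and with 5 added (-0.58). PXN efficiency came past it with the upper quartile (0.60). With the nearest genes' median subtracted, the mRNA ratios of CFL1 (-0.6) and PDLIM1 (-0.64) came past it, so 6 of 42 members were lower in mRNA. The footprint ratio of MYH10 (-0.64) and the efficiency of MYL12A (0.64) also did. Shares of all genes after this subtraction are not reported here, so these counts have no background beside them. No paired analysis was possible because each line gave 1 library per assay and the labels hold no replicate numbers. Depth limits MYL9, TAGLN, IQGAP2, ARPC4 and CALD1 most, and 3 RNA counts, the smallest level taken as seen, are 0.575 CPM for the OE-labelled and 0.423 CPM for the knockout-labelled line.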
